A study of Mus musculus with 52 samples.

Results

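The genes described here are 10 that serve neutrophil recruitment and function, of 27525 genes in the deposited table of 32 tumors. They are the chemokine ligands Cxcl1, Cxcl2, Cxcl3 and Cxcl5, the chemokine receptor Cxcr2, the growth factor Csf3 and its receptor Csf3r, the calprotectin subunits S100a8 and S100a9, and the peptidylarginine deiminase Padi4. They were chosen by name, and each was found once in the table. Bulk RNA-seq was performed on whole KPC tumors, raised from pancreatic cancer cells of the mouse, with mutant Trp53 and Pdx1-Cre among their alleles, that were injected into the flanks of male C57BL/6NHsd mice aged 8 to 10 weeks. Each of 4 groups held 8 tumors, all resected on day 14. Untreated tumors carry the label control, and no vehicle is named for them. ADU-S100 tumors received 2 µg of this STING agonist, an analog of the signaling molecule cGAMP, by 1 injection into the tumor on day 0. Anti-LTβR tumors came from mice given 100 µg of an agonistic antibody against the lymphotoxin β receptor into the peritoneum, 4 times until day 10. Combination tumors received both agents at these doses. The tumors are implanted under the skin and hold host cells beside tumor cells, so a level is an average over all cells of a tumor, in which fewer cells of a type and less RNA per cell cannot be told apart.

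Neutrophils are short-lived leukocytes that leave the bone marrow under the control of G-CSF, the product of Csf3, which acts through the receptor encoded by Csf3r. In mice, CXCL1, CXCL2, CXCL3 and CXCL5 attract neutrophils by binding CXCR2 on their surface, and these ligands are made by epithelial cells, stromal cells and macrophages in response to inflammatory signals that act through NF-κB. S100A8 and S100A9 pair as calprotectin, an abundant protein of the neutrophil cytosol, and PAD4, the product of Padi4, converts arginine to citrulline in histones during the release of neutrophil extracellular traps. In pancreatic cancer, CXCR2 ligands and neutrophils have been studied for their part in limiting T cell entry.

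The 4 ligand genes lie close together on chromosome 5, within 146579 bases (chr5:90759360-90905938, GRCm38), and S100a8 and S100a9 lie within 26744 bases on chromosome 3 (chr3:90668978-90695721, GRCm38). Promoter sequences from RefSeq (GRCm38.p6) were at hand for 8 of the 10 genes, and not for Cxcl5 or Csf3. The stretches from 120 to 31 bases before the starts of Cxcl1, Cxcl2 and Cxcl3, all on the plus strand, are shown because Cxcl2 and Cxcl3 passed tests described below and Cxcl1 lies between them on the chromosome. Capitals mark GGGAATTTCCC, the longest word that the 3 stretches share (11 bases, where the next longest shared word has 6). It holds a known form of the site bound by NF-κB, and begins 71 bases before the start of Cxcl1, 97 before that of Cxcl2 and 73 before that of Cxcl3.
Cxcl1 (chr5:90891125-90891214): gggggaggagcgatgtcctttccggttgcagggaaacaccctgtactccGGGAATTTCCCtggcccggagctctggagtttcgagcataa
Cxcl2 (chr5:90903779-90903868): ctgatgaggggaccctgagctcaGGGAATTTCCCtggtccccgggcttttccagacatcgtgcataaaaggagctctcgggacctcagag
Cxcl3 (chr5:90785981-90786070): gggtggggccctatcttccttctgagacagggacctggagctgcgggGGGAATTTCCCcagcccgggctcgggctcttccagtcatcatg
Searched on both strands from 250 bases before to 50 bases after the start, the word was found in 14 of 32851 promoter windows (0.0426%), among them those of these 3 genes and of no other of the 8. The match describes letters, and binding was not measured.

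Values are normalized counts, which are reads per gene divided by 1 scaling factor per library. Whole reads recovered from a second deposited table gave 12762453 to 15591986 reads per library over the 32 tumors. All 6 neutrophil markers (Ly6g, Cd177, Retnlg, Camp, Ngp and Mmp8) were detected in the tumors. Combination tumors 7 and 8 stood apart: their summed neutrophil markers were 10557 and 7598 normalized counts, against 1333 to 2620 in the other 6 combination tumors. The same 2 tumors had 118232 and 88632 normalized counts of 4 hemoglobin genes that mark red cells, against 19355 to 29163 in the other 6, and results that these tumors move are therefore given with and without them. Summed markers of keratinocytes, the cells of the epidermis, ran from 1386 to 64714 normalized counts over the 32 tumors. The part of these cells in the results below was not tested.

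The median of each ligand was lower in both single-agent groups than in untreated tumors, and 2 of the 4 ligands passed the test under anti-LTβR. Cxcl1 ran from 76.7 to 589 normalized counts in untreated tumors, with a median of 188. With ADU-S100 its range was 47.0 to 224 (median 103), with anti-LTβR 65.7 to 266 (median 93.9) and with both agents 78.6 to 195 (median 125). The groups overlapped, and untreated tumors 5 and 7, at 493 and 589, held the highest values of all 32. Cxcl2 was held to a narrow range in untreated tumors, 44.4 to 79.3 (median 59.1), and reached lower values with ADU-S100, 14.1 to 64.4 (median 36.3). In anti-LTβR tumors it ran from 14.4 to 66.2 (median 24.4). Combination tumors spread over both ranges, from 15.0 to 142 (median 41.1). In each treated group alike, 5 of 8 tumors lay below every untreated tumor in Cxcl2.

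Cxcl3, the ligand with the clearest pattern over the groups, ran from 22.7 to 43.2 normalized counts in untreated tumors (median 27.9). With ADU-S100 it spanned 5.99 to 29.6 (median 10.9), and 7 of 8 tumors lay below every untreated tumor. Anti-LTβR tumors held both low and high values, 6.68 to 30.6 (median 15.0), with 5 of 8 below every untreated tumor. In the combination Cxcl3 ran from 11.5 to 51.9 (median 27.8), a median close to that of untreated tumors. Cxcl5, a ligand made largely by epithelial cells, varied widely within groups. Its medians were 73.3 without treatment, 51.6 with ADU-S100, 42.6 under anti-LTβR and 78.2 with both agents. The ranges overlapped widely: 23.4 to 118 without treatment, 11.98 to 104 with ADU-S100, 6.68 to 84.4 under anti-LTβR and 5.77 to 154 with both.

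**Figure D1:**
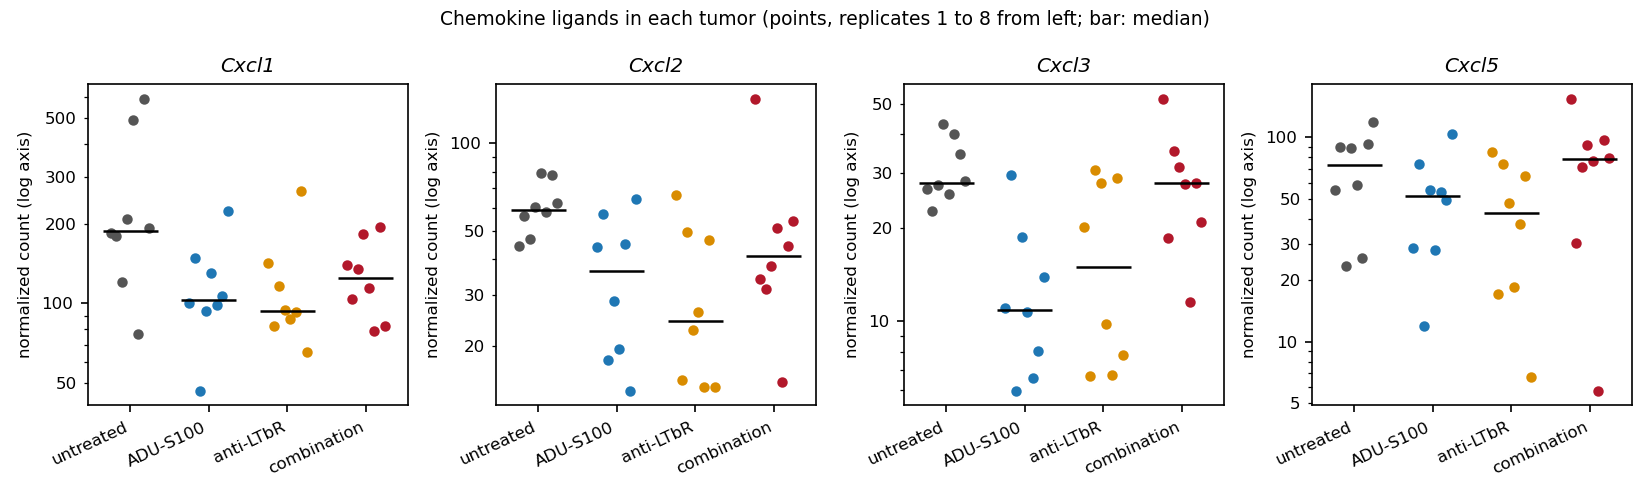
Normalized counts (vertical axis, logarithmic) of Cxcl1, Cxcl2, Cxcl3 and Cxcl5 in the 4 groups (horizontal axis), with 1 point per tumor in the order of replicates 1 to 8 and a bar at the median. Most ADU-S100 points of Cxcl3 lie below the lowest untreated point of 22.7, and most combination points lie above it.

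Under anti-LTβR alone, 2 of the 4 ligands fell. The limma test was fitted to all genes that passed a filter on low values, with p adjusted by the Benjamini-Hochberg method, and calls required an adjusted p below 0.05 together with 2-fold or more. Cxcl2 averaged 31.9 ± 19.6 (SD, n = 8) normalized counts in anti-LTβR tumors against 60.6 ± 12.6 (SD, n = 8) in untreated tumors, a log2 difference of -1.10 ± 0.30 (SE, adjusted p = 0.0229 by limma). Cxcl3 averaged 17.3 ± 10.7 against 31.1 ± 7.34 (SD, n = 8 each), a log2 difference of -1.02 ± 0.33 (SE, adjusted p = 0.0449 by limma). Of the 9 genes tested, 2 were thus called lower and 0 higher, where 0.383% of all 16691 genes tested were called lower and 0.653% higher (8.1% and 7.21% at an adjusted p below 0.05 alone). Cxcl1 had a log2 difference of -0.94 ± 0.37 (SE, adjusted p = 0.0879 by limma) and Cxcl5 of -0.81 ± 0.48 (SE, adjusted p = 0.244 by limma), so neither passed. Without untreated tumors 5 and 7 the difference of Cxcl1 was -0.49 (adjusted p = 0.233, limma). Cxcl1 passed in DESeq2, at -1.11 (adjusted p = 0.0380), which called it by the same rule, in a joint fit of the 4 groups (adjusted p = 0.0456, limma) and without untreated tumor 6, at -1.15 (adjusted p = 0.0377, limma). Without anti-LTβR tumor 2, 6 or 8 Cxcl2 was no longer called, since its log2 difference was then -0.99, -0.98 and -0.98, below 2-fold, although its adjusted p was at most 0.0458 (limma) with any 1 library left out. The call of Cxcl3 was lost when any 1 of 10 libraries was left out (untreated tumors 1, 3, 4, 6, 7 and 8, and anti-LTβR tumors 2, 5, 6 and 8), with adjusted p from 0.0518 to 0.0864, and in edgeR both calls were lost, with adjusted p of 0.0506 for Cxcl2 and 0.0886 for Cxcl3. Both were lost in DESeq2 too, where Cxcl2 was at -0.93, below 2-fold (adjusted p = 0.0198), and Cxcl3 at -0.84 (adjusted p = 0.0587). Without untreated tumors 5 and 7 Cxcl2 was at -0.97, below 2-fold (adjusted p = 0.0498, limma), and Cxcl3 had an adjusted p of 0.0625 (limma).

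ADU-S100 alone gave no call among the 9 genes tested, nor among any of the 16613 genes (0%). Before adjustment, 4 of the 9 had p below 0.05, as did 14.5% of all genes, and edgeR called none by the same rule. DESeq2 gave an adjusted p for Padi4, S100a8 and S100a9 only, of which it called none, and left it undefined for the other 6. Cxcl3 had the largest difference of these genes, at 13.1 ± 7.86 against 31.1 ± 7.34 normalized counts (SD, n = 8 each), which is a log2 difference of -1.33 with a 95% interval from -1.90 to -0.75 (unadjusted p = 0.000143, adjusted p = 0.276, limma). The log2 difference was -0.88 ± 0.28 for Cxcl2 (SE, adjusted p = 0.279 by limma) and -0.93 ± 0.37 for Cxcl1 (SE, adjusted p = 0.307 by limma), which was -0.47 without untreated tumors 5 and 7. All 3 comparisons with untreated tumors share the same 8 untreated tumors, so they are not independent of each other.

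In the combination none of the 9 genes was called against untreated tumors, where 5.16% of all 16909 genes were called higher and 0.952% lower. Before adjustment 3 of the 9 had p below 0.05, as did 51.3% of all genes, and edgeR and DESeq2 called none. Cxcl3 averaged 28.2 ± 12.3 normalized counts (SD, n = 8), a log2 difference from untreated tumors of -0.22 with a 95% interval from -0.73 to 0.30 (adjusted p = 0.489, limma). For Cxcl5 the difference was -0.06 (adjusted p = 0.935, limma), and it was 0.15 in edgeR and in DESeq2. For Cxcl2 the difference was -0.47 ± 0.31 (SE, adjusted p = 0.232 by limma) and for Cxcl1 it was -0.76 ± 0.35 (SE, adjusted p = 0.0901 by limma). Cxcl1 was at -0.97 in edgeR (adjusted p = 0.0390) and in DESeq2 (adjusted p = 0.0143), and at -0.30 without untreated tumors 5 and 7 (adjusted p = 0.348, limma). Combination tumor 1 was highest of its group in Cxcl2, Cxcl3 and Cxcl5, and without it Cxcl2 had a log2 difference of -0.71 with an adjusted p of 0.0213 by limma. Without untreated tumor 6, Cxcl1 had -0.96 with an adjusted p of 0.0233 by limma. Against ADU-S100 tumors Cxcl3 rose, with a log2 difference of 1.11 ± 0.32 (SE, adjusted p = 0.0101 by limma). It was the 1 gene called of the 9 tested, higher, where 5.46% of all 16811 genes were called higher and 0.714% lower, and its change fell below 2-fold when ADU-S100 tumor 3 or combination tumor 1 was left out (lowest log2 difference 0.97). Against anti-LTβR tumors the log2 difference of Cxcl3 was 0.80 ± 0.37 (SE, adjusted p = 0.121 by limma), and none of the 9 genes was called there (3 at an unadjusted p below 0.05, beside 39.2% of all genes, none in edgeR or DESeq2), where 1.96% of all genes were called higher and 0.148% lower. Between the single-agent groups none of the 9 genes was called either (1 at an unadjusted p below 0.05, beside 24% of all genes, none in edgeR or DESeq2), where 0.559% of all genes were called higher with anti-LTβR and 0.042% lower, and 3.38% and 3.04% at an adjusted p below 0.05 alone.

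The change with ADU-S100 differed between tumors with and without anti-LTβR for Cxcl3 and Cxcl2. This interaction is the log2 difference of combination from anti-LTβR tumors minus that of ADU-S100 from untreated tumors, tested over all 32 tumors at an adjusted p below 0.05. It was 2.13 ± 0.47 for Cxcl3 (SE, adjusted p = 0.00270 by limma) and 1.51 ± 0.51 for Cxcl2 (SE, adjusted p = 0.0369 by limma). For Cxcl1 it was 1.11 ± 0.47 (SE, adjusted p = 0.0978 by limma) and for Cxcl5 it was 1.23 ± 0.76 (SE, adjusted p = 0.270 by limma). Of the 9 genes tested, 2 were called with a positive and 1, Padi4, with a negative interaction, where 7.33% of all 17649 genes were positive and 11% negative. The call of Cxcl2 was lost in edgeR (adjusted p = 0.0533) and without combination tumors 7 and 8 (adjusted p = 0.0628 by limma), while Cxcl3 had an adjusted p of at most 0.00777 over 9 alternatives.

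**Figure D2:**
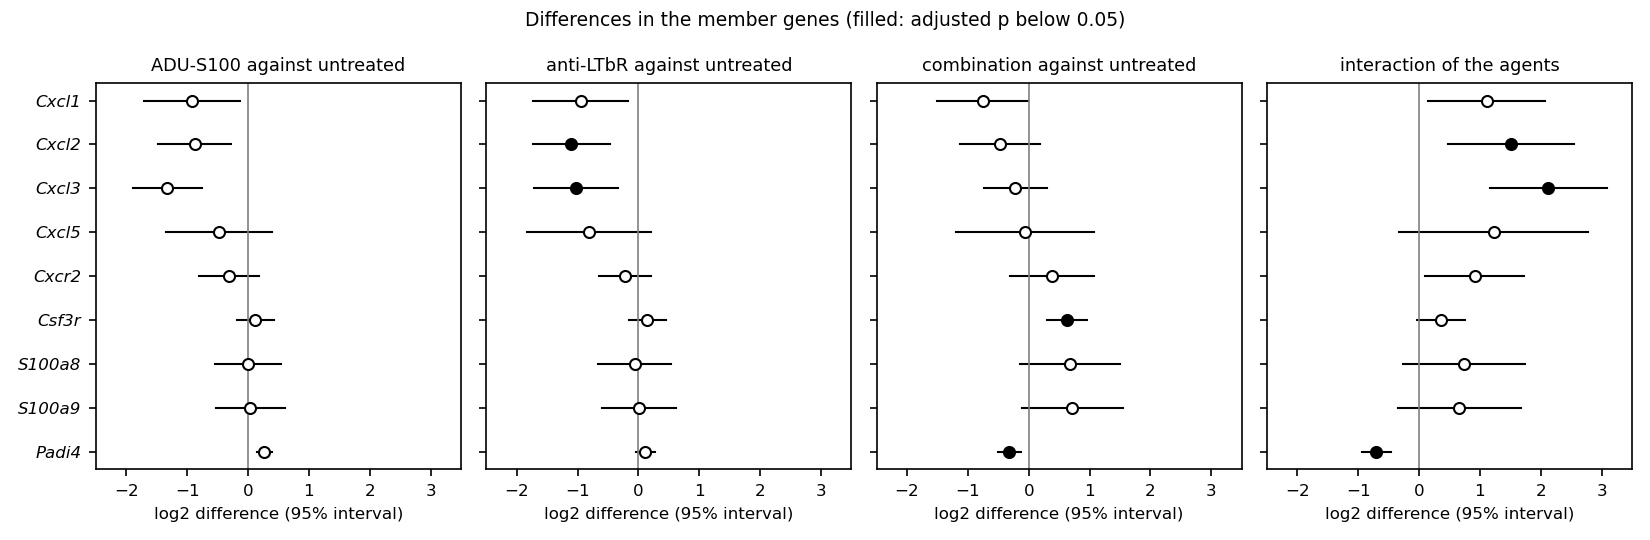
Log2 differences (horizontal axis, points) with 95% intervals (lines) of the 9 genes tested (vertical axis) for ADU-S100, anti-LTβR and combination against untreated tumors and for the interaction of the agents. Filled points have an adjusted p below 0.05: Cxcl2 and Cxcl3 under anti-LTβR, Csf3r and Padi4 in the combination, and Cxcl2, Cxcl3 and Padi4 in the interaction.

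Keratinocyte markers moved with 1 ligand, Cxcl2, from tumor to tumor, and the other 3 did not pass. After the group means were removed, Cxcl2 had a Pearson r of 0.55 with the summed level of 9 keratinocyte markers over 32 tumors (permutation adjusted p = 0.0108 over 40 such relations) and a Spearman rho of 0.54. Without the 2 tumors farthest from the median r was 0.52, and within the 4 groups it ran from 0.29 to 0.73. For Cxcl3 r was 0.37 (permutation adjusted p = 0.150), for Cxcl5 it was 0.43 (permutation adjusted p = 0.0851) and for Cxcl1 it was 0.32 (permutation adjusted p = 0.242). The median of the summed keratinocyte markers was 14662 normalized counts without treatment, 5115 with ADU-S100, 5773 under anti-LTβR and 23065 with both agents. None of the 9 passed the test in any comparison of 2 groups in limma, and 1 of 9 had a positive interaction. Their part in the ligand differences was not tested.

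Cxcr2, the receptor shared by the 4 ligands, ran from 32.6 to 93.8 normalized counts in untreated tumors (median 61.2). With ADU-S100 the range was 30.96 to 79.8 (median 41.8), and with anti-LTβR it was 35.6 to 68.9 (median 49.9). In the combination 6 tumors lay from 34.8 to 80.3, within the untreated range, and tumors 7 and 8 both reached 177. Cxcr2 passed no test by limma with all tumors: its log2 difference was 0.39 ± 0.33 (SE, adjusted p = 0.352) for combination against untreated tumors, -0.22 ± 0.20 (SE, adjusted p = 0.459) for anti-LTβR and -0.31 ± 0.23 (SE, adjusted p = 0.512) for ADU-S100. Without tumors 7 and 8 the first of these was -0.01 (adjusted p = 0.969, limma). Against ADU-S100 tumors the combination difference was 0.69 ± 0.33 (SE, adjusted p = 0.0953 by limma), with an adjusted p of 0.0473 without combination tumor 2, of 0.0388 without combination tumor 3 and of 0.384 without tumors 7 and 8 together. Against anti-LTβR tumors it was 0.61 ± 0.31 (SE, adjusted p = 0.156 by limma), with 0.84 in DESeq2 (adjusted p = 0.0368) and 0.21 without tumors 7 and 8, where it did not pass (limma).

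Csf3, which encodes G-CSF, was near the limit of detection. It was listed at 0 in 3 untreated tumors, 2 with ADU-S100, 4 under anti-LTβR and 2 with both agents, and its highest values in these groups were 4.87, 1.98, 4.83 and 5.77 normalized counts. It failed the filter on low values in every comparison and was tested alone by two-sided exact permutation, which gave p from 0.175 to 0.798 over the 6 pairs of groups.

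Csf3r rose in the combination. It ran from 325 to 582 normalized counts with both agents (median 471), against 207 to 424 without treatment (median 303), 272 to 415 with ADU-S100 (median 325) and 261 to 440 under anti-LTβR (median 346). Of the 8 combination tumors, 5 lay above every untreated tumor, and no 2 groups were fully apart. The log2 difference was 0.63 ± 0.15 against untreated (SE, adjusted p = 0.00364 by limma), 0.51 ± 0.12 against ADU-S100 (SE, adjusted p = 0.00323 by limma) and 0.48 ± 0.13 against anti-LTβR tumors (SE, adjusted p = 0.0118 by limma). All 3 are below 2-fold, and 19.6%, 20.2% and 11.3% of all genes tested were higher at an adjusted p below 0.05 in these comparisons. Csf3r had an adjusted p of at most 0.0262 with any 1 tumor left out and at most 0.0359 without tumors 7 and 8. Under the single agents its log2 difference from untreated tumors was 0.12 ± 0.14 with ADU-S100 (SE, adjusted p = 0.683 by limma) and 0.15 ± 0.14 under anti-LTβR (SE, adjusted p = 0.486 by limma), and its interaction of 0.36 ± 0.20 did not pass (SE, adjusted p = 0.207 by limma).

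Csf3r was related to markers of other cells. The receptor is made by neutrophils and also by monocytes. With the summed level of 5 tumor epithelium markers (Epcam, Krt8, Krt18, Krt19 and Cdh1) it had a Pearson r of -0.68 after group means were removed (permutation adjusted p = 0.0016 over 40 relations, n = 32 tumors) and a Spearman rho of -0.69, and r was -0.73 without the 2 farthest tumors. Within the 4 groups r ran from -0.90 to 0.01, so the relation did not appear in every group. The summed epithelial level averaged 21287 ± 4916 normalized counts without treatment and 10697 ± 2618 with both agents (SD, n = 8 each), and 3 of its 5 markers fell in the combination. Most of this sum is keratin, with untreated means of 9520 for Krt8, 7356 for Krt18 and 3919 for Krt19. Epcam averaged 77.5 without treatment and 96.7 with both agents, and Cdh1 averaged 414 and 408. Of 7 monocyte and macrophage markers 6 rose in the combination against untreated tumors, and their summed level ranged from 18096 to 27160 normalized counts there and from 13179 to 22930 in untreated tumors. With the 6 neutrophil markers Csf3r had an r of 0.54 (permutation adjusted p = 0.0145) and a rho of 0.55. Ptprc, a marker of leukocytes as a whole, ran from 2007 to 2952 normalized counts in combination tumors and from 1310 to 1861 in untreated tumors. The part of all these cells in the rise of Csf3r was not tested.

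S100a8 and S100a9 had the highest levels per length of the 10 genes, were spread about 11-fold and 12-fold between tumors and did not pass the test in any comparison. S100a8 ran from 628 to 2535 normalized counts in untreated tumors (median 1461), 866 to 2408 with ADU-S100 (median 1266) and 652 to 2632 under anti-LTβR (median 1278). In the combination 6 tumors lay from 1035 to 2798, a range close to that of the other groups, and tumors 7 and 8 reached 6757 and 5743. S100a9 ran from 946 to 3919 without treatment (median 2294), 1342 to 4108 with ADU-S100 (median 1931), 1096 to 4216 under anti-LTβR (median 2066) and 1696 to 11196 with both agents (median 2879), where the 6 tumors other than 7 and 8 reached 4311 (median 2363). The log2 difference of combination from untreated tumors was 0.68 ± 0.39 for S100a8 (SE, adjusted p = 0.170 by limma) and 0.71 ± 0.39 for S100a9 (SE, adjusted p = 0.151 by limma). Without tumors 7 and 8 it was 0.18 (adjusted p = 0.644, limma) and 0.21 (adjusted p = 0.587, limma). With single agents the differences from untreated tumors lay between -0.06 and 0.04, with a 95% interval for S100a8 from -0.66 to 0.54 under anti-LTβR and from -0.55 to 0.54 under ADU-S100.

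**Figure D3:**
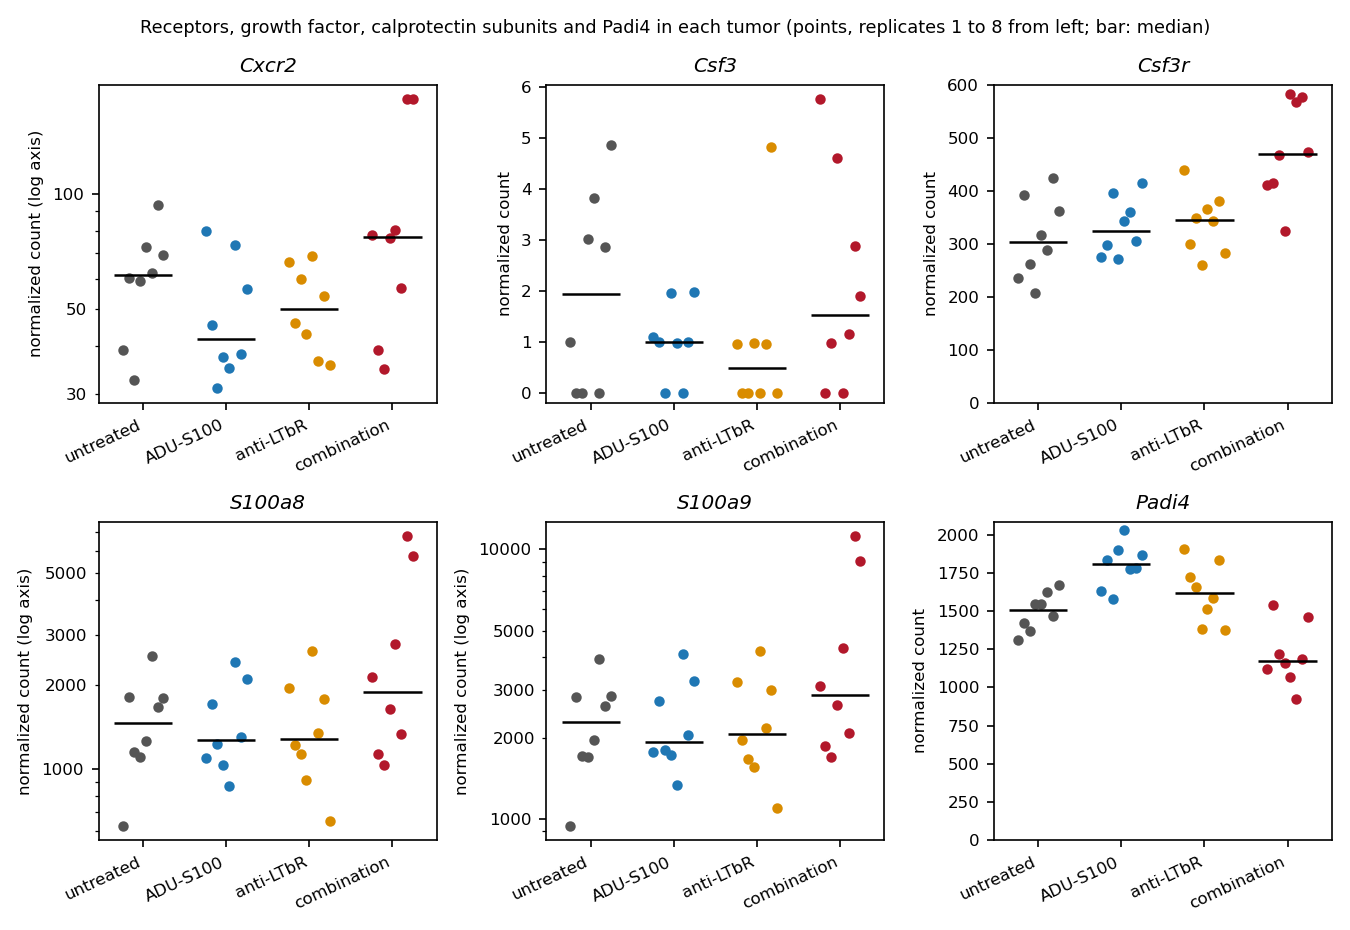
Normalized counts of Cxcr2, Csf3, Csf3r, S100a8, S100a9 and Padi4 in the 4 groups, with 1 point per tumor in the order of replicates 1 to 8 and a bar at the median. The vertical axis is logarithmic for Cxcr2, S100a8 and S100a9 and linear for the others. Combination tumors 7 and 8 are the highest points of Cxcr2, S100a8 and S100a9, and all 8 combination points of Padi4 lie below all ADU-S100 points.

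The proportion of the calprotectin subunits was nearly constant. The ratio of S100a9 to S100a8 normalized counts averaged 1.59 ± 0.069 (SD, n = 32) and ran from 1.46 to 1.72. Its group means were 1.55 without treatment, 1.59 with ADU-S100, 1.63 under anti-LTβR and 1.59 with both agents. Their deviations from the group means had a Pearson r of 0.997 and a Spearman rho of 0.991 (permutation p = 1e-05 each, the smallest the permutations can give, n = 32), and r was 0.995 without the 2 farthest tumors. With the summed neutrophil markers S100a8 had an r of 0.91 and S100a9 of 0.91 (permutation adjusted p = 0.0002 each), and within the groups r ran from 0.85 to 0.95.

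Padi4 was abundant, tightly spread and lowest in the combination. It ran from 1311 to 1669 normalized counts without treatment (median 1505), 1579 to 2028 with ADU-S100 (median 1810), 1378 to 1906 under anti-LTβR (median 1620) and 922 to 1540 with both agents (median 1172). All 8 combination tumors lay below all 8 ADU-S100 tumors, and 6 of 8 lay below every untreated tumor. Groups were fully apart in this way for 7.41% of all genes in this comparison, and Padi4 was the 1 member for which any 2 groups were. The share was 6.69% for combination against untreated tumors, 1.96% for combination against anti-LTβR, 1.11% for anti-LTβR against untreated, 0.04% for ADU-S100 against untreated and 0.393% between the single agents. Padi4 fell in the combination, by a log2 difference of -0.32 ± 0.09 against untreated (SE, adjusted p = 0.00896 by limma), -0.43 ± 0.10 against anti-LTβR (SE, adjusted p = 0.00493 by limma) and -0.59 ± 0.09 against ADU-S100 tumors (SE, adjusted p = 7.87e-05 by limma). In these comparisons 23.6%, 15.3% and 26% of all genes tested were lower at an adjusted p below 0.05. The interaction was -0.70 ± 0.12 (SE, adjusted p = 0.000361 by limma). Its highest adjusted p with any 1 tumor left out was 0.0194 in the 3 comparisons with combination tumors, and at most 0.00675 without tumors 7 and 8.

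With ADU-S100 alone the log2 difference of Padi4 from untreated tumors was 0.27, with a 95% interval from 0.14 to 0.39, and 6 of 8 ADU-S100 tumors lay above every untreated tumor. Its unadjusted p was 0.000273 and its adjusted p 0.276 by limma, where no gene passed, and its adjusted p was 0.0169 by DESeq2. Under anti-LTβR the difference was 0.11 ± 0.07 (SE, adjusted p = 0.272 by limma). The summed tumor epithelium markers were lower in the combination as well, at the levels given beside Csf3r. Padi4 did not pass the test of a relation to them (r = 0.30, permutation adjusted p = 0.339), with r from -0.41 to 0.73 within groups, and their part in its fall was not tested. Nor did it pass with the neutrophil markers (r = 0.31, permutation adjusted p = 0.396) or with Cxcr2 (r = 0.19, permutation adjusted p = 0.472, n = 32), and in combination tumors 7 and 8 it was at 1188 and 1461 normalized counts, within the range of the other 6.

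**Figure D4:**
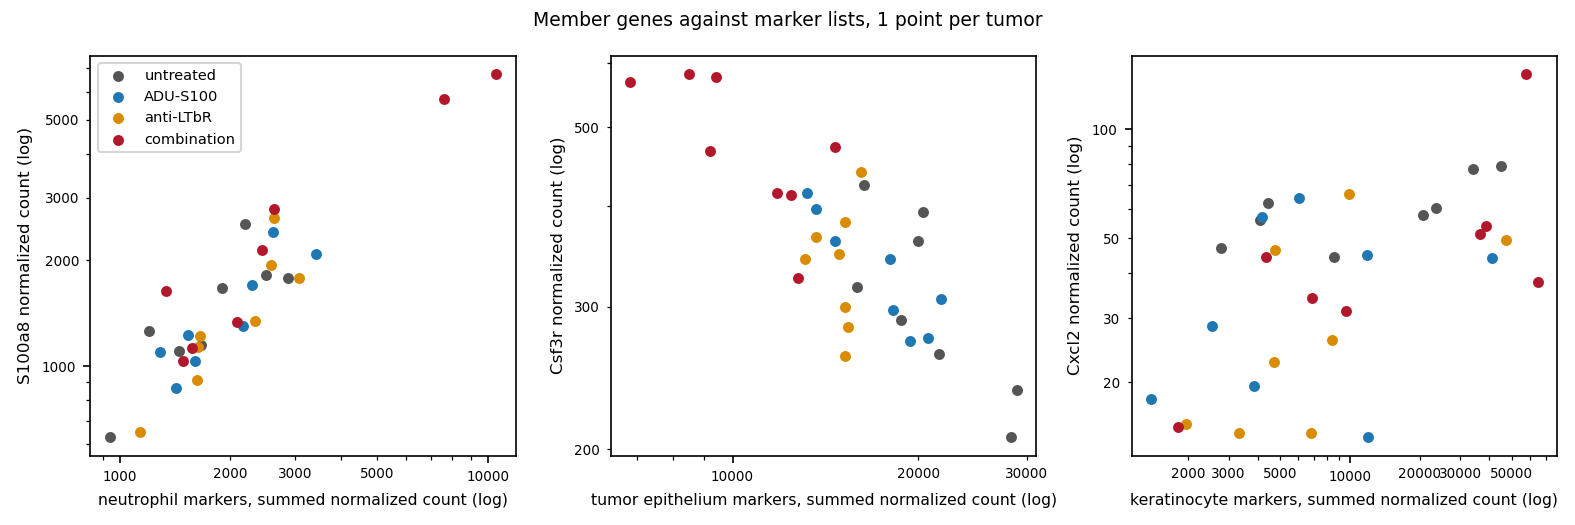
Normalized counts of S100a8, Csf3r and Cxcl2 (vertical axes, logarithmic) against the summed normalized counts of 6 neutrophil, 5 tumor epithelium and 9 keratinocyte markers (horizontal axes, logarithmic), with 1 point per tumor colored by group. Combination tumors 7 and 8 lie at the upper end of the neutrophil panel, Csf3r is lower where epithelial markers are higher (r = -0.68 after group means were removed), and Cxcl2 is higher where keratinocyte markers are higher (r = 0.55).

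Relations between the genes were tested for 10 pairs on deviations from the group means, and 7 passed. Cxcr2 was related to S100a8 (r = 0.80, rho = 0.74, permutation adjusted p = 6.67e-05, n = 32), with r from 0.52 to 0.97 within groups. For this pair r was 0.70 without the 2 farthest tumors and 0.66 without combination tumors 7 and 8. Cxcl1 was related to Cxcl5 (r = 0.63, rho = 0.71, permutation adjusted p = 6.67e-05) and to Cxcl2 (r = 0.50, rho = 0.56, permutation adjusted p = 0.00110), with r of 0.64 and 0.47 without the farthest tumors. Cxcl2 was related to Cxcr2 (r = 0.54, rho = 0.73, permutation adjusted p = 0.00634), with r = 0.59 without the 2 farthest tumors, and Cxcl5 to Cxcr2 (r = 0.42, rho = 0.50, permutation adjusted p = 0.0479), with r = 0.39. Csf3r was related to S100a9 (r = 0.50, rho = 0.57, permutation adjusted p = 0.00968), with r = 0.51 without the farthest tumors. Csf3r and Cxcr2 did not pass (r = 0.34, rho = 0.43, permutation adjusted p = 0.0979), except without the 2 farthest tumors (r = 0.40, permutation adjusted p = 0.0364), nor did Csf3 and Csf3r (r = -0.07, rho = -0.07, permutation adjusted p = 0.744).

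Among 17649 genes, those with the pattern over 32 tumors most like each member are given as a description. For S100a8 they were S100a9, Ctsg and Mpo (r = 1.00, 0.94 and 0.91), and for S100a9 they were S100a8, Ctsg and Elane. Ctsg, Mpo and Elane encode cathepsin G, myeloperoxidase and neutrophil elastase, proteins laid down in granules early in neutrophil formation. For Cxcr2 they were S100a8, S100a9 and Chil1 (r from 0.81 to 0.82). For Cxcl3 they were Cxcl2, Ccl2 and Duoxa1 (r from 0.68 to 0.74). For Cxcl1 they were Ccl20, Cxcl5 and Lce3c (r from 0.62 to 0.76), of which Lce3c encodes a protein of the cornified skin layer. For Cxcl2 they were Ovol1, Cxcl3 and Cxcl5 (r from 0.73 to 0.80), and for Cxcl5 they were Igfbp2, Clic3 and Cldn4 (r from 0.79 to 0.90). For Csf3r they were Sorl1, Fbxl7 and Inpp5d (r from 0.87 to 0.88), and for Padi4 they were Myh9, Smad4 and Itpr3 (r = 0.85 each), with no gene of the neutrophil lists among them.

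Per kilobase of the longest coding transcript, the order of mean levels over the 32 tumors was S100a9 at 5554 normalized counts, S100a8 at 3718, Padi4 at 661, Cxcl1 at 163, Csf3r at 105, Cxcl5 at 38.0, Cxcl2 at 24.2, Cxcl3 at 22.1, Cxcr2 at 20.7 and Csf3 at 1.08. Csf3 aside, whose lowest value of 0 gives no such ratio, the spread over tumors was smallest for Padi4, with a highest value 2.20 times the lowest. Csf3r followed at 2.82 times, and the spread was largest for Cxcl5, at 26.7 times. Neighbors in the lower part of this order, from Cxcl5 to Cxcr2, overlapped widely between tumors.

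Genes of neutrophils outside the 10 were higher in the combination at about the share of all genes. Of 11 granule genes 2 rose and 0 fell against untreated tumors, and of 12 genes of mature neutrophils tested 3 rose and 1 fell, where 19.6% of all genes tested were higher and 23.6% lower at an adjusted p below 0.05. The median log2 difference was 0.67 for the granule genes and 0.52 for the mature neutrophil genes, beside -0.02 over all genes. Without combination tumors 7 and 8 these medians were 0.04 and 0.06, beside -0.02 over all genes. In that fit 2 granule genes rose and 3 mature neutrophil genes rose and 1 fell, where 17.9% of all genes were higher and 21.2% lower. Both granule genes that rose encode matrix metalloproteinases. Mmp9 went from 992 ± 344 to 2865 ± 1256 normalized counts (SD, n = 8 each), a log2 difference of 1.52 (adjusted p = 0.000564, limma) that was 1.51 without tumors 7 and 8. Mmp8 rose by 1.10 (adjusted p = 0.00651, limma), and by 0.75 without them (adjusted p = 0.0209, limma).

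The granule genes that did not pass included Mpo, Elane and Camp. Mpo had a difference of 0.59 (adjusted p = 0.291, limma), which was -0.05 without tumors 7 and 8. Elane was at 0.68 (adjusted p = 0.246, limma) with these tumors and 0.04 without them, and Camp was at 0.67 (adjusted p = 0.180, limma) and 0.10. Ly6g, the surface marker by which mouse neutrophils are usually identified, was at 0.68 (adjusted p = 0.219, limma) and 0.05. Among mature neutrophil genes the formyl peptide receptors Fpr2 and Fpr1 rose by 1.49 (adjusted p = 0.000113, limma) and 0.71 (adjusted p = 0.0110, limma), Mmp25 rose by 0.44 (adjusted p = 0.00551, limma) and Trem1, an activating receptor of myeloid cells, fell by 0.75 on the log2 scale (adjusted p = 0.00153, limma). All 4 passed without tumors 7 and 8 as well, with the highest adjusted p at 0.0410 (limma) for Fpr1. Under anti-LTβR 0 of 11 granule genes passed and 1 of 12 mature neutrophil genes fell, where 7.21% of all genes were higher and 8.1% lower. Under ADU-S100 alone none passed in either list, where 0% of all genes passed.

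Genes that act around the members were counted against the same shares of 19.6% higher and 23.6% lower in the combination. Of 7 adhesion genes for neutrophil entry 4 rose in the combination against untreated tumors and 0 fell, and under anti-LTβR 3 rose and 0 fell, where 7.21% of all genes were higher. Icam1, an endothelial ligand of leukocyte integrins, rose from 377 ± 59.8 to 856 ± 241 normalized counts (SD, n = 8 each; log2 difference 1.15, adjusted p = 5.52e-05, limma), and the integrin chains Itgb2 and Itgal, which other leukocytes also carry, rose by 0.78 (adjusted p = 0.000142, limma) and 0.82 (adjusted p = 0.000895, limma). Of 7 oxidase and extracellular trap genes 5 rose and 0 fell, led by Cybb, the catalytic oxidase subunit, at 1.16 (adjusted p = 7.9e-05, limma), which monocytes and macrophages also express. Of the 9 tested among 12 upstream inducers 3 rose and 2 fell, which is near the shares of all genes. The receptor Il1r1 rose by 0.49 (adjusted p = 0.000498, limma), Tnf by 1.29 (adjusted p = 0.000214, limma) and Il1a by 0.67 (adjusted p = 0.0210, limma). Csf2 fell by 0.87 on the log2 scale (adjusted p = 0.0191, limma), and Il17ra, the receptor of interleukin 17, fell by 0.23 (adjusted p = 0.0206, limma). Of 5 other CXC chemokine and receptor genes tested 3 rose: Cxcl12, which holds neutrophils in the marrow, by 1.04 (adjusted p = 0.00026, limma), its receptor Cxcr4 by 0.82 (adjusted p = 8.24e-05, limma) and the scavenging receptor Ackr1 by 0.89 (adjusted p = 0.000613, limma).

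Stromal markers moved in the same comparison. All 5 fibroblast markers rose, and their summed level was 101303 to 369587 normalized counts in combination tumors against 59973 to 96072 in untreated tumors, with every combination tumor above every untreated tumor. All 3 endothelial markers rose as well, with summed levels of 1705 to 2400.2 against 998 to 1429 normalized counts. Fibroblasts express Cxcl12 and Il1r1, and endothelial cells express Icam1 and Ackr1. The part of these cells in the rises of Cxcl12, Icam1, Ackr1, Il1r1 and Mmp9 was not tested.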

How the data were processed

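The authors deposited, for the 32 tumors, a signal of normalized counts (reads per gene divided by a size factor per library), and a larger table of the same signal for 52 libraries, from which whole reads were recovered by dividing by the worth of 1 read (at least 99.9% of values whole within 0.1 reads in every library). Tumors were grouped and numbered as the labels state. The full genotype of the tumor cells is not reported here. The submitters' processing notes name cutadapt 1.9, HISAT2, StringTie, STAR, Partek and mm39. The deposited signal for the 32 tumors carries Partek in its name. Which of the other tools made each table is not given in the sources used here. The files hold no strand information, and no other annotated gene overlaps any of the 10. Positions are from GENCODE annotation of GRCm38 and promoters from RefSeq. The shared promoter word was found after the members were known.

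limma 3.58.1 (R 4.3.3, trend) was run on log2(value + 1), a scale that understates changes of low genes such as Cxcl3, with filterByExpr of edgeR 4.0.16 (count minimum 10), on the 16 libraries of each comparison or all 32 for the interaction. Alternatives were pseudocounts of 0.5 and 0.1, other filters, a joint fit of 4 groups, the replicate number as a block, edgeR (quasi-likelihood test) and DESeq2 1.42.0 on recovered reads, and each library left out. Leaving out combination tumors 7 and 8 (also for the gene lists), or untreated tumors 5 and 7, and the 40 relations with marker lists were added after seeing the data. Permutation tests used 100000 shuffles within groups, with p adjusted by the Benjamini-Hochberg method, or all 12870 splits for exact tests. On simulated counts for combination against untreated tumors, with log2 changes of 1.5, limma recovered 184 of 184 changed genes. There were 12 false calls among 15853 genes tested. Recovery at smaller changes or at the spread of each member was not tested. Named genes were all 10 members and, from each neutrophil list, at most 4 genes that passed the test with the smallest adjusted p. Beyond this rule, Camp, Elane, Mpo, Ly6g and Csf2 were chosen after their values were seen. The members, gene lists and marker lists were chosen with earlier results of these data known. The labels do not say that tumors came from separate mice, so p-values measure the spread between these samples. The authors' table of gene set enrichment (enrichment scores and p-values) was not used, and per-sample columns left unused number 0. The 20 libraries of another experiment enter no comparison, since the labels of 15 contradict each other.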

Additional observations from a re-analysis of the deposited data

Results flagged for a closer look

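In groups of 8 tumors, 3 values lay far from the rest of their group, where chance gives about 1 in 20 groups and 40 groups were examined. Cxcl1 was at 266 normalized counts in anti-LTβR tumor 7, next to 142 in the second highest tumor. Cxcl2 was at 142 in combination tumor 1, next to 54.0. Csf3 was at 4.83 in anti-LTβR tumor 7, next to 0.97, which is a difference of a few reads.

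The change with ADU-S100 differed between tumors with and without anti-LTβR for 3 genes, as a tested interaction in limma: 2.13 on the log2 scale for Cxcl3, 1.51 for Cxcl2 and -0.70 for Padi4. Of all 17649 genes, 7.33% had a positive and 11% a negative interaction. The call of Cxcl2 was lost in edgeR and without combination tumors 7 and 8 (adjusted p = 0.0628, limma).

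Of the 10 members, 10 had more than 3 reads in at least 1 of the 20 libraries of the other experiment, which enter no comparison.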

How the results depend on the processing

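Of 612 values of single genes under an alternative, 569 had the direction and the side of the threshold of the reported value, 17 passed only under the alternative, 13 no longer passed and 13 turned sign. The cause was not tested. Those that turned sign, on the log2 scale, were Cxcl5 in combination against untreated tumors (0.15 in edgeR with TMM, 0.17 with library totals, 0.15 in DESeq2, and 0.031 without untreated tumors 5 and 7), Cxcr2 there without combination tumors 7 and 8 (-0.014), S100a8 in ADU-S100 against untreated tumors without untreated tumors 5 and 7 (0.016) and, in anti-LTβR against ADU-S100 tumors, Cxcl1 (0.0064 and 0.018 in edgeR, 0.0014 in DESeq2), S100a8 (0.00019 with library totals) and S100a9 (0.016 and 0.022 in edgeR, 0.011 in DESeq2).

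Members called under anti-LTβR were 2. They were 1, Cxcl2, without a filter, with at least 10 normalized counts in every library (which left Cxcl3 untested) and in the fit with a replicate block, 1 in DESeq2, which was Cxcl1 and neither of the reported genes, and 0 in both edgeR fits and without untreated tumors 5 and 7. In combination against ADU-S100 tumors the 1 call became 0 with at least 10 normalized counts in every library. At an adjusted p alone, 2, 2 and 3 members passed in combination against untreated, anti-LTβR and ADU-S100 tumors. Of all genes, 19.6% were higher and 23.6% lower against untreated tumors by this rule. The shares were 11.3% and 15.3% against anti-LTβR and 20.2% and 26% against ADU-S100 tumors. DESeq2 gave 5 interactions instead of 3. With 1 library left out, members called ran from 0 to 2 under anti-LTβR (0 without anti-LTβR tumor 2, 6 or 8) and from 0 to 1 in combination against ADU-S100 tumors (0 without ADU-S100 tumor 3 or combination tumor 1). The interaction was not refitted with libraries left out. Over all genes, calls under anti-LTβR were 173, but 330 without a filter, 96 with at least 10 normalized counts in every library, 111 without untreated tumor 1 and 112 without untreated tumor 4, and those in the combination against untreated tumors were 1034, but 1638 without a filter and 649 with that minimum. Between the single agents they were 100, but 49 without ADU-S100 tumor 2, 63 without anti-LTβR tumor 4 and 52 without anti-LTβR tumor 6. ADU-S100 gave 0 calls, but 1 in edgeR, in DESeq2, in the joint fit, with the block and without ADU-S100 tumor 4, and 6 without untreated tumor 6.

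Not every pair of tumors with the same number deviated together (mean r from -0.085 to 0.186 over the 6 comparisons, with at most 6 of 8 pairs over 0.1). For ADU-S100 against untreated tumors the mean r was 0.186, beside -0.029 for tumors with other numbers. For combination against anti-LTβR tumors it was 0.173 beside -0.025. In the remaining comparisons the mean r of the same numbers ran from -0.085 to 0.018. Whether the numbers pair the tumors cannot be settled by this check. With the replicate block Cxcl1 in combination against untreated tumors (adjusted p = 0.0349, limma) and Cxcl3 in combination against anti-LTβR tumors (adjusted p = 0.0238, limma) passed and Cxcl3 under anti-LTβR did not (adjusted p = 0.0530, limma). DESeq2 left the adjusted p of 6 members undefined for ADU-S100 against untreated tumors. Csf3 rests on few reads, with at most 5.77 normalized counts.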

Other observations

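Marker lists of other leukocytes also differed between the groups. Of 5 mast cell markers 4 fell under anti-LTβR and 4 fell and 1 rose in the combination against untreated tumors (limma), where 8.1% of all genes were lower under anti-LTβR and 23.6% were lower and 19.6% higher in the combination. Their summed level was 826 ± 273 normalized counts without treatment, 492 ± 369 with ADU-S100, 276 ± 51.0 under anti-LTβR and 356 ± 123 with both agents (SD, n = 8 each). Of 5 eosinophil markers 0 passed against untreated tumors in the combination. Their summed level in combination tumors 7 and 8 was 962 and 882 normalized counts, against 210 to 327 in the other 6, and that of 3 platelet markers was 371 and 341 against 133 to 197. These 2 tumors were thus higher than the rest of their group in the summed markers of neutrophils, eosinophils, platelets and red cells. Not all eosinophil markers shared this. Prg2 reached 699 normalized counts in combination tumors against at most 212 in untreated tumors, and Epx 156 against 42.1. The highest combination values of Ccr3 (55.0), Siglecf (40.7) and Alox15 (114) lay below the highest untreated values (56.1, 46.8 and 145).

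In the other experiment, 5 libraries carry the combination in all their labels. Their values, from a table normalized separately, ran from 172 to 1927 for S100a9, from 41.7 to 225 for Cxcl3 and from 546 to 1341 for Padi4. One of the 5 has 8716257 recovered reads, the fewest of all libraries, and in it Cxcl5 and Cxcr2 are listed at 0. In the 15 libraries with contradictory labels S100a9 ran from 18.04 to 1710 (median 182) and Padi4 from 384 to 1159 (median 903).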
